A study of Mus musculus with 4 samples.

Results

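The genes described here encode fibroblast growth factors (FGFs), their receptors and the inhibitors and transcription factors that FGF signalling switches on. They were chosen by name: every gene on the array whose symbol begins with Fgf and a number, Fgfr, Spry or Spred, together with *Etv1*, *Etv4*, *Etv5*, *Dusp6*, *Frs2*, *Frs3* and *Il17rd*. Of 18193 genes with a probe set that carries 1 gene symbol, 40 met this rule. *Etv1* and *Frs2* had no such probe set and were not analysed here. *Fgfr1op2* entered by its name alone, which records a human gene fusion with FGFR1; it is no receptor, and its values are given apart.

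The 4 groups were heads of *Hand2NC* embryos at E12.5, heads of wild-type (WT) embryos at E12.5, whole bodies of *Hand2NC* embryos at E11.5 and whole bodies of WT embryos at E11.5, all on a mixed C57BL/6J x ICR background. *Hand2NC* embryos carried *Hand2* CAT/+ and *Wnt1-Cre*: Cre, made under a *Wnt1* promoter in the neural crest lineage and part of the dorsal neural tube, removes a stop cassette, after which the ubiquitous CAG promoter drives *Hand2*. WT embryos were littermates. RNA of several embryos was pooled for 1 array per group, so no difference below has a replicate check, and no p-value is given. Stage and tissue differ together and cannot be told apart.

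FGFs are secreted proteins that bind receptor tyrosine kinases together with heparan sulphate, and the activated receptors signal through the RAS-MAPK cascade. The cascade turns on transcription factors of the *Etv4* and *Etv5* group and also its own inhibitors, the Sprouty and Spred proteins, the ERK phosphatase DUSP6 and the membrane protein SEF (*Il17rd*), whose transcripts are therefore widely used as a readout of FGF signalling. In the embryonic face, FGFs made by the oral epithelium, *Fgf8* above all, act on the neural crest-derived mesenchyme of the jaws. Hand2 is a basic helix-loop-helix factor that marks the lower jaw side of that mesenchyme.

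Each array gives 1 MAS5 signal per probe set, a linear intensity in arbitrary units that can be set against the same probe set on another array but not against another gene. A gene was taken from its brightest probe set and compared at a stage where the brighter array was at or above that array's own median, which lay between 97.2 and 106. A difference of 2-fold was called. Beside it stands the local spread, a robust standard deviation of the log2 ratio over the 500 genes nearest in signal, in which measurement error and real differences are mixed.

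The overexpressed gene was past 2-fold higher in *Hand2NC* on 1 of its 3 *Hand2* probe sets, with signals of 706 in *Hand2NC* and 33.4 in WT heads, and of 314 in *Hand2NC* and 67.1 in WT bodies. A brighter *Hand2* probe set was higher by less in heads, with 839 in *Hand2NC* and 592 in WT (log2 ratio 0.50). In bodies it was nearly level, with 1244 in *Hand2NC* and 1214 in WT (0.04). The third was below the filter, with signals of at most 7.82. A legend of the study names heads at E11.5, where the labels give bodies. Of the 5 liver markers 4 were lower in both heads than in both bodies, as were all 4 limb and trunk markers above the filter: *Alb* was at 33.7 and 29.1 in the *Hand2NC* and WT heads against 8530 and 9010 in the *Hand2NC* and WT bodies, and *Hoxd13* was at 13.7 and 18.1 in the heads against 1027 and 1092 in the bodies. The fifth liver marker, *Ttr*, was higher in the heads, with 14209 in *Hand2NC* and 17721 in WT heads against 7901 in *Hand2NC* and 9223 in WT bodies. All 5 forebrain markers measured were higher in both heads than in both bodies. The E12.5 *Hand2NC* array stood apart in the Y-linked *Kdm5d*, which had a signal of 8.72 there and between 535 and 677 on the other arrays, and its *Xist* signal of 16187 compares with 8988 in WT heads; the part of embryo sex in the results was not tested, and with 1 array per group no E12.5 comparison between the genotypes can be made without that array.

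To show the sequence around the start of some of these genes, the promoter windows of 4 genes follow, from 250 bases before to 50 bases after the start (RefSeq, GRCm38.p6, read 5′ to 3′ on the gene's strand). *Fgf7* and *Spred1* had the 2 highest ratios at E12.5 and *Spry2* was among the inhibitors higher at E11.5. *Etv5* was level between the genotypes at both stages on the probe set used, and its window holds an E-box of the kind that Hand2 binds. *Spry4*, the only gene called at 2-fold between the genotypes, is not among the 4. Capitals mark the 3 motifs searched on both strands: CATCTG, that E-box, and CCGGAA and CAGGAA, forms of the site of ETS factors such as ETV4 and ETV5.
Fgf7, chr2:126034408-126034707, plus strand: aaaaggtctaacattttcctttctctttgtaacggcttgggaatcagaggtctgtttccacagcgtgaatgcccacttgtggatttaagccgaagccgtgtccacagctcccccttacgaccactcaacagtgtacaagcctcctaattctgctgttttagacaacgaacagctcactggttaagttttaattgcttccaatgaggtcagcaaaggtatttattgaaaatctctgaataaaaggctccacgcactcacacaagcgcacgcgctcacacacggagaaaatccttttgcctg
Spred1, chr2:117120821-117121120, plus strand: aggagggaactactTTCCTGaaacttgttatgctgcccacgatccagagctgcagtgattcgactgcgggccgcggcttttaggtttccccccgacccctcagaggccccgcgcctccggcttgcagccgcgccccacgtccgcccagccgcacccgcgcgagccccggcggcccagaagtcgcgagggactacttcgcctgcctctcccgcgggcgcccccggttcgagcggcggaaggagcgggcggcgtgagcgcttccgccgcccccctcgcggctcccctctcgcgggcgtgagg
Spry2, chr14:105896770-105897069, minus strand: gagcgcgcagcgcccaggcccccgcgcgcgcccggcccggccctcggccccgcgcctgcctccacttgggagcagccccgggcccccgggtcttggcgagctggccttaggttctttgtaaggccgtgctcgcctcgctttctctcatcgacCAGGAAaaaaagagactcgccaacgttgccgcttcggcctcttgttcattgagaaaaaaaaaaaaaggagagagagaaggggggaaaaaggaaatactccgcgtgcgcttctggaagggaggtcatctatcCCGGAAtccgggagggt
Etv5, the first of its 2 windows, chr16:22439521-22439820, minus strand: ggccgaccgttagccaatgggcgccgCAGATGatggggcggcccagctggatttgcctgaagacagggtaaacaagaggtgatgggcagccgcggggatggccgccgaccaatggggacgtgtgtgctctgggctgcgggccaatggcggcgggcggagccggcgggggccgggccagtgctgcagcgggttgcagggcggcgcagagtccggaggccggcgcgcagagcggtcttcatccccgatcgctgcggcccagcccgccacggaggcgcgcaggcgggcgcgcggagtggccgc

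In these letters the *Fgf7* window held none of the 3 motifs. The *Spred1* window held CAGGAA at bases 15 to 20 on the opposite strand. CAGGAA at bases 153 to 158 and CCGGAA at bases 284 to 289 lay in the *Spry2* window, and CATCTG at bases 27 to 32 on the opposite strand lay in the *Etv5* window. Over the 39 windows of the 30 genes that matched the table, CATCTG was in 12.8%, CCGGAA in 12.8% and CAGGAA in 30.8%, against 17.2%, 14.9% and 30.6% of all 32851 windows. None of the stretches in capitals overlap. A match is a description of the letters and not a bound site.

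Few FGF pathway genes passed 2-fold between *Hand2NC* and WT embryos, among those that could be compared. The share of them within 0.5 of 0 on the log2 scale was below that of all genes at both stages. All genes were not matched to them in signal, and the local spread is wider for dimmer genes. The part of signal in these shares was not tested. At E12.5, 26 of the 40 genes were above the filter, 0 of them were 2-fold higher and 0 were 2-fold lower, where 0.203% and 0.195% of the 11815 genes compared passed the cutoff in these directions. Their median log2 ratio was 0.01, beside 0.0033 over all genes, and 23 of 26 lay within 0.5 of 0, against 95.6% of all genes. At E11.5, 1 of 24 genes above the filter was 2-fold higher and 0 were 2-fold lower, against 0.177% and 0.269% of 11886 genes. The median there was 0.0017, beside -0.01 over all genes, and 20 of 24 lay within 0.5 of 0, against 95.5% of all genes. Because whole heads and bodies were used, fewer cells of a type and less RNA per cell cannot be told apart in any of these values.

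Measured against the local spread, 3 genes were higher and 4 lower in *Hand2NC* heads at E12.5, where 17.0% and 16.4% of all genes were. In *Hand2NC* bodies at E11.5, 7 genes were higher and 4 lower, beside 16.2% and 17.4% of all genes. No gene was past the spread in the same direction at both stages, of 23 compared at both: 0 higher, with 2.75% of all genes, and 0 lower, with 2.87%. The split of genes depends on the scaling. With each array centred on its median, 73.3% of all genes past the spread at E12.5 and 25.7% at E11.5 were on the higher side, where the trimmed mean gave 51.0% and 48.3%. The FGF pathway genes then split into 5 higher and 4 lower at E12.5, and 4 higher and 8 lower at E11.5. Past the spread in the same direction under the trimmed mean, median centring and quantile normalization were *Fgf7*, *Spred1* and *Fgfr1op2* (higher) and *Fgf12*, *Fgf13*, *Fgfrl1* and *Spry4* (lower) at E12.5, and *Fgf11*, *Fgfr1*, *Il17rd* and *Spry4* (higher) and *Fgf9*, *Fgf18*, *Fgfr3* and *Frs3* (lower) at E11.5. These settings change the scaling of the same probe sets. With the mean over probe sets, only *Fgf7*, *Fgf13* and *Fgfrl1* at E12.5 and *Fgf9*, *Fgf18* and *Frs3* at E11.5 stayed past it that way. *Fgf18* and *Frs3* have 1 probe set each, so this setting could not change their ratios. Fewer genes were above the filter with the mean, 20 at each stage, and those below it were not counted. *Spred1* at E12.5 and *Fgfr3* and *Il17rd* at E11.5 were then past the spread in the other direction.

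**Figure D1:**
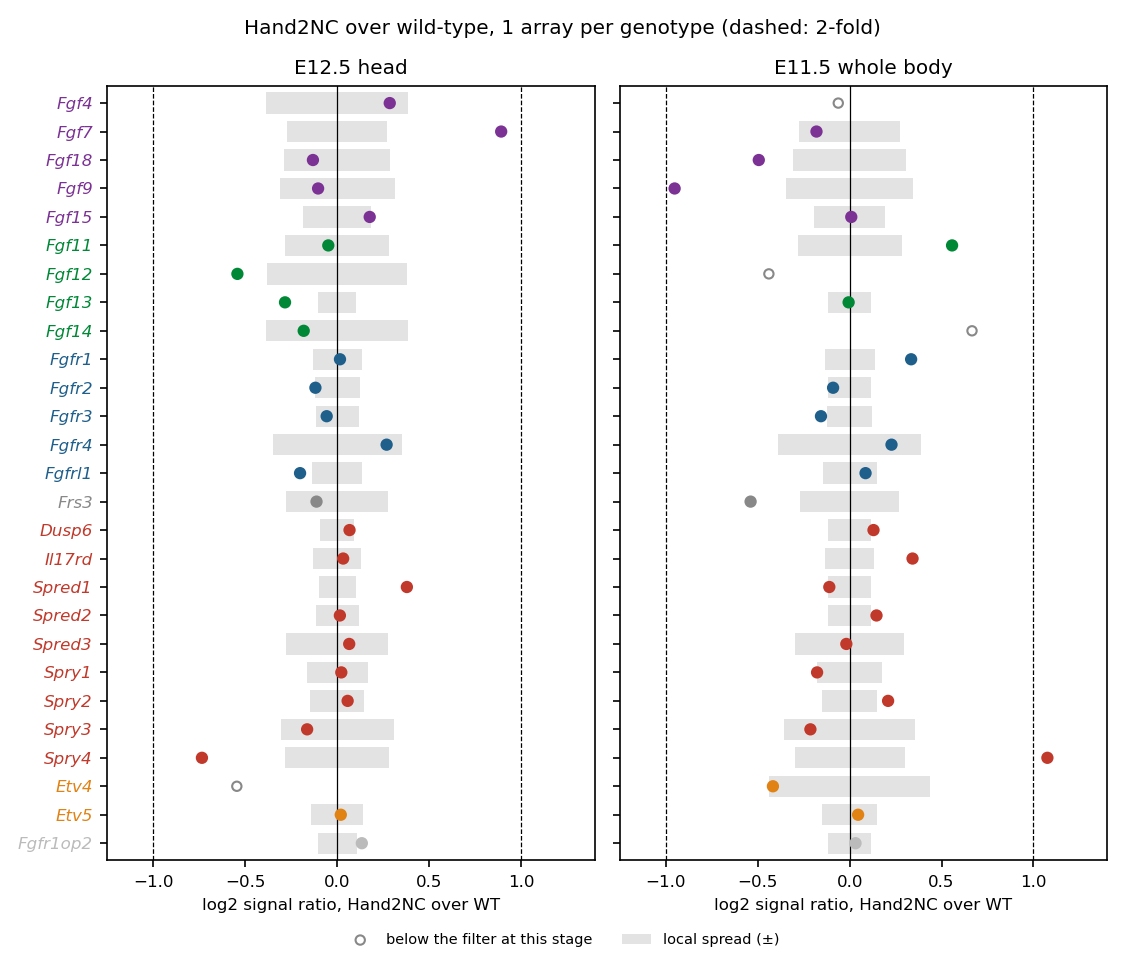
Log2 ratio of *Hand2NC* over WT signal (x axis) for the 27 FGF pathway genes above the filter on at least 1 array (y axis, coloured by role), in E12.5 heads on the left and E11.5 whole bodies on the right. Each point is the ratio of 2 arrays, grey bars are the local spread on either side of 0, open points were below the filter at that stage, and dashed lines mark 2-fold; only *Spry4* at E11.5 lies beyond a dashed line.

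Most ligands stayed below the filter. Of the 18 FGFs that act outside the cell, 13 were under it at both stages, with signals between 3.92 and 94.3: *Fgf1*, *Fgf2*, *Fgf3*, *Fgf5*, *Fgf6*, *Fgf8*, *Fgf10*, *Fgf16*, *Fgf17*, *Fgf20*, *Fgf21*, *Fgf22* and *Fgf23*. *Fgf8*, the main epithelial FGF of the face, had signals of 94.3 in *Hand2NC* and 38.9 in WT heads, and of 87.5 in *Hand2NC* and 81.6 in WT bodies. All 4 values lie under the medians of their arrays, so no ratio was read from them.

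Among the ligands above the filter, *Fgf7* had the highest ratio at E12.5. This ligand, keratinocyte growth factor, is made by mesenchyme and acts on the epithelium through a splice form of FGFR2. Its signal was 264 in *Hand2NC* and 142 in WT heads, and 133 in *Hand2NC* and 151 in WT bodies. The *Hand2NC* head thus stood above the other 3 arrays, which lay close together. The log2 ratio was 0.89 at E12.5, past the local spread of 0.27, and -0.18 at E11.5, within the spread of 0.28. A dimmer second probe set, below the filter, gave 0.79 at E12.5 (99.1 in *Hand2NC* and 57.4 in WT heads) but 0.57 at E11.5 (95.6 in *Hand2NC* and 64.6 in WT bodies).

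*Fgf9*, made by epithelia and acting on mesenchyme, was lower in the *Hand2NC* body than in the WT body on the probe set used. It had 131 in *Hand2NC* and 141 in WT heads, and 113 in *Hand2NC* and 219 in WT bodies, and the WT body alone stood above the other arrays. The log2 ratio at E11.5 was -0.95 with a spread of 0.34, and it passed 2-fold with median centring (-1.01) and with quantile normalization. A second *Fgf9* probe set, also above the filter, went the other way at E11.5, with 136 in *Hand2NC* and 123 in WT bodies and a log2 ratio of 0.14, and the mean over both was -0.40. The summed signal of 5 skin and oral epithelium markers was 3682 in *Hand2NC* and 4091 in WT bodies, with 2 of 5 lower past the spread, beside 17.4% of all genes. The part of these markers in the *Fgf9* ratio was not tested.

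*Fgf18*, which acts in skeletal growth, had signals of 175 in *Hand2NC* and 192 in WT heads, and of 111 in *Hand2NC* and 157 in WT bodies. Its log2 ratio was -0.13 at E12.5, within the spread of 0.29, and -0.49 at E11.5, past the spread of 0.31. *Fgf15*, the mouse counterpart of the human gut hormone FGF19 and in the embryo a gene of the developing brain, had 624 in *Hand2NC* and 552 in WT heads, and 296 in *Hand2NC* and 294 in WT bodies. The genotypes lay close at both stages (log2 ratios of 0.18 and 0.01, with spreads of 0.18 and 0.19), and both heads were above both bodies. *Fgf4*, the ligand next to it on the chromosome, was above the filter in 1 array alone, with 104 in *Hand2NC* and 85.2 in WT heads, and 90.9 in *Hand2NC* and 94.9 in WT bodies. *Fgf3*, *Fgf4* and *Fgf15* are neighbours on chromosome 7 with no other protein-coding gene between them, and of the 3 only *Fgf15* had a signal above the array median on all 4 arrays.

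**Figure D2:**
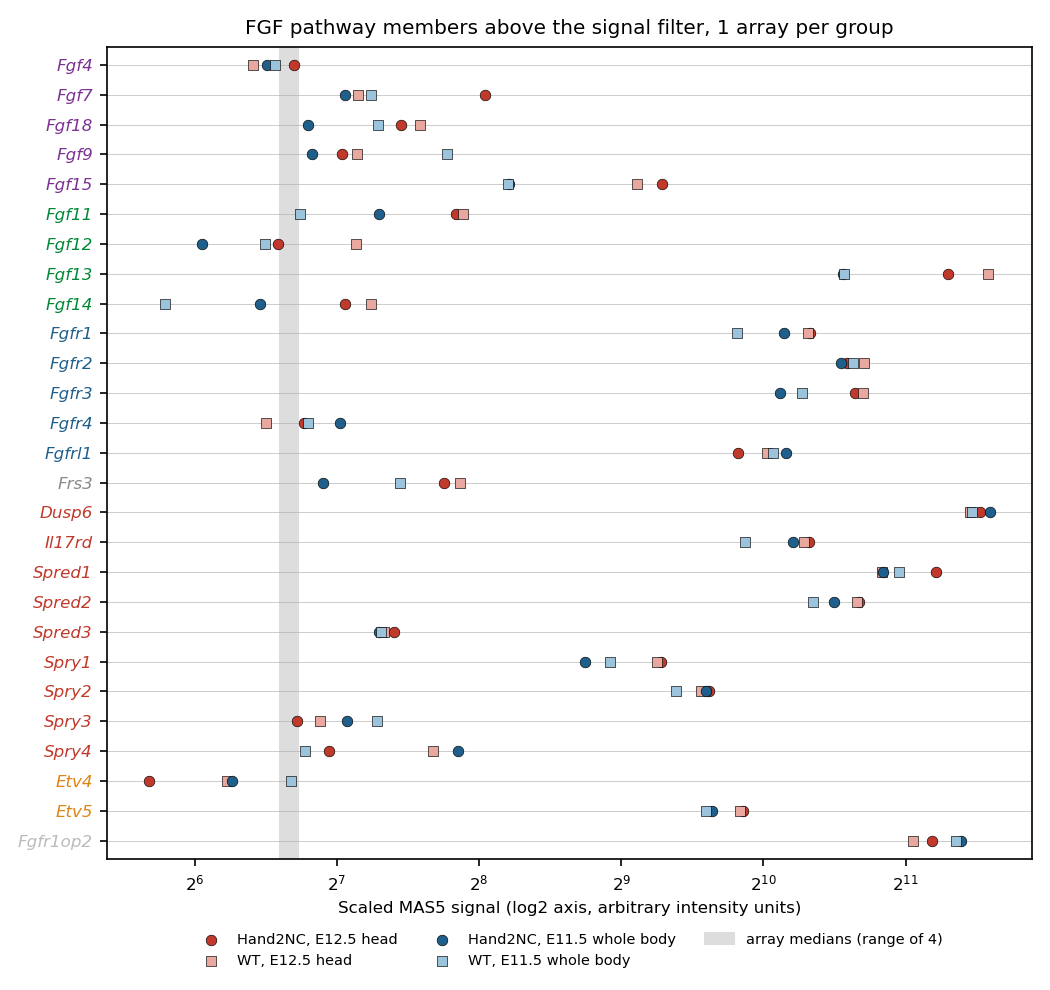
Scaled MAS5 signal (x axis, log2, arbitrary intensity units) of each of the 27 genes above the filter (y axis, coloured by role) on the 4 arrays: red and pink for *Hand2NC* and WT heads at E12.5, dark and light blue for *Hand2NC* and WT bodies at E11.5, with the range of the 4 array medians in grey. Positions compare arrays within a gene and not genes with each other; *Fgf7* in the *Hand2NC* head (264) and *Fgf9* in the WT body (219) stand apart from their other 3 points.

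The 4 FGF homologous factors, *Fgf11* to *Fgf14*, stay inside the cell and bind voltage-gated sodium channels, and neurons are their main site. In E12.5 heads all 4 had ratios below 0, with a median of -0.23, and 2 were past the local spread, beside 16.4% of all genes lower past it. *Fgf13* had 2514 in *Hand2NC* and 3059.8 in WT heads, and 1508 in *Hand2NC* and 1513 in WT bodies. Its log2 ratio was -0.28 at E12.5 with a spread of 0.10, and -0.01 at E11.5 with a spread of 0.12. *Fgf12* had 96.3 in *Hand2NC* and 140.3 in WT heads, a log2 ratio of -0.54 with a spread of 0.38, while another of its probe sets gave 0.52 (128 in *Hand2NC* and 89.9 in WT heads). The probe set used passed the filter through the WT head alone. In the E11.5 bodies *Fgf12* was below the filter, with 66.4 in *Hand2NC* and 90.0 in WT.

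*Fgf11* was close between the genotypes in heads, with 229 in *Hand2NC* and 237 in WT, and higher in the *Hand2NC* body, with 157 against 107 in the WT body. The E11.5 log2 ratio was 0.56, with a spread of 0.28. *Fgf14* had 133 in *Hand2NC* and 151 in WT heads (log2 ratio -0.18, spread 0.39), and 87.9 in *Hand2NC* and 55.4 in WT bodies, both below the filter. Neuron markers moved in the same direction as this group at E12.5: the summed signal of 10 such genes, a list added after the data were seen, was 45391 in *Hand2NC* and 50024 in WT heads, and 27660 in *Hand2NC* and 27881 in WT bodies. At E12.5 the median log2 ratio of these markers was -0.14, and 7 of 10 were lower past the spread, beside 16.4% of all genes. *Fgf13* also lies on the X chromosome. The part of neuron content and of embryo sex in the ratio of *Fgf13* was not tested.

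Of 5 receptors, all but *Fgfr4* were above the 75th percentile of every array, which lay between 495 and 529. Their log2 ratios lay between -0.20 and 0.27 at E12.5 and between -0.16 and 0.33 at E11.5, with medians of -0.06 and 0.09. *Fgfr1*, the main receptor of facial mesenchyme, had 1288 in *Hand2NC* and 1274 in WT heads, and 1133 in *Hand2NC* and 898 in WT bodies. On this probe set the heads were level (log2 ratio 0.02), and the bodies differed by 0.33 with a spread of 0.14. The other *Fgfr1* probe sets, also above the filter, gave 0.07 and -0.34 at E12.5, the latter from 123 in *Hand2NC* and 156 in WT heads. At E11.5 they gave 0.15 and -0.20, and their mean with the first was 0.10.

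*Fgfr2*, whose splice forms divide between epithelium and mesenchyme, had 1538 in *Hand2NC* and 1669 in WT heads, and 1492 in *Hand2NC* and 1588 in WT bodies, with log2 ratios of -0.12 and -0.09, within the spread of 0.12 at both stages. *Fgfr3*, a brake on cartilage growth, had 1600.4 in *Hand2NC* and 1665 in WT heads, and 1108 in *Hand2NC* and 1234 in WT bodies. Its log2 ratio was -0.06 at E12.5, within the spread, and -0.16 at E11.5 with a spread of 0.12; the mean over its 2 probe sets was 0.32 at E11.5, in the other direction. *Fgfr4* was near the array medians, with 109 in *Hand2NC* and 90.6 in WT heads, and 130.0 in *Hand2NC* and 111 in WT bodies, and both ratios (0.27 and 0.23) were within the spread.

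*Fgfrl1* encodes a receptor without a kinase domain. It had 906 in *Hand2NC* and 1042 in WT heads, and 1141 in *Hand2NC* and 1075 in WT bodies. The log2 ratio was -0.20 at E12.5 with a spread of 0.13, and its other probe set gave -0.14. At E11.5 it was 0.09, within the spread, and the other probe set gave -0.16. *Frs3*, an adaptor that couples the receptors to the RAS pathway, had 216 in *Hand2NC* and 233 in WT heads (log2 ratio -0.11, within the spread), and 119.9 in *Hand2NC* and 174 in WT bodies (log2 ratio -0.54, spread 0.27).

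The feedback inhibitors were all above the filter at both stages, 9 of 9. At E12.5 their median log2 ratio was 0.03, with 1 higher and 1 lower past the local spread, beside 17.0% and 16.4% of all genes. At E11.5 the median was 0.13, with 5 higher and 0 lower, beside 16.2% and 17.4% of all genes. With median centring only *Il17rd* and *Spry4* of these 5 were past the spread at E11.5, and *Spred1* and *Spry1* were lower. With the mean over probe sets *Dusp6* and *Spry2* were higher, and *Il17rd* and *Spry1* lower. *Dusp6* and *Spry1* have 1 probe set each, so for them only the spread could change and not the ratio.

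*Spry4*, a Sprouty protein that blocks RAS-MAPK signalling, was the gene called at 2-fold, and it went opposite ways at the 2 stages. Its signal was 123 in *Hand2NC* and 205 in WT heads, and 231 in *Hand2NC* and 109.6 in WT bodies. High values were thus in the WT head and the *Hand2NC* body, and low values in the *Hand2NC* head and the WT body, so that neither the genotypes nor the stages separated. The log2 ratio was -0.74 at E12.5 with a spread of 0.28, and 1.08 at E11.5 with a spread of 0.30. The other 3 *Spry4* probe sets were below the filter; the brightest of them had 65.8 in *Hand2NC* and 65.9 in WT heads, and 70.6 in *Hand2NC* and 67.6 in WT bodies, with ratios of -0.0038 and 0.06. The other two had ratios of -2.52 and -1.27 at E12.5 and of 3.09 and 0.83 at E11.5, from signals of at most 42.4. Raising the filter to the 75th percentile or averaging all probe sets left *Spry4* below the filter at E11.5, and the call was lost, with log2 ratios there of 1.08 and 1.27.

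The other Sprouty genes had smaller ratios. *Spry1* had 620.3 in *Hand2NC* and 611 in WT heads, and 428 in *Hand2NC* and 484 in WT bodies, with log2 ratios of 0.02 and -0.18, both within the spread. *Spry2* had 786 in *Hand2NC* and 756 in WT heads, and 773 in *Hand2NC* and 669 in WT bodies. Its ratio was 0.06 at E12.5, within the spread, and 0.21 at E11.5, past the spread of 0.15. *Spry3*, near the array medians, had 106 in *Hand2NC* and 118 in WT heads, and 135 in *Hand2NC* and 156 in WT bodies, with ratios of -0.16 and -0.21, both within the spread.

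Spred proteins bring neurofibromin to the membrane, where it switches RAS off. *Spred1* was the inhibitor with the highest ratio at E12.5, with 2377 in *Hand2NC* and 1828 in WT heads, and 1834 in *Hand2NC* and 1980.3 in WT bodies. The *Hand2NC* head stood above the other 3 arrays, with a log2 ratio of 0.38 and a spread of 0.10, against -0.11 at E11.5. Its 8 probe sets did not move together. The next brightest also gave a higher value, 1635 in *Hand2NC* and 1387 in WT heads (0.24), but of the other 4 above the filter at E12.5, all had ratios below 0, among them -0.59 (321 in *Hand2NC* and 482 in WT heads) and -0.46 (173 in *Hand2NC* and 237 in WT heads). The mean over the probe sets was -0.37, so the direction for *Spred1* depends on the probe set.

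*Spred2* had 1634 in *Hand2NC* and 1617 in WT heads, and 1444 in *Hand2NC* and 1305 in WT bodies, with log2 ratios of 0.01 and 0.15 (spread 0.12 each), so that the second was past it. A dimmer *Spred2* probe set had 67.5 in *Hand2NC* and 136 in WT heads, a log2 ratio of -1.01, and was the only other probe set of any of the 40 genes past 2-fold above the filter. *Spred3* had 169 in *Hand2NC* and 161 in WT heads, and 157 in *Hand2NC* and 159 in WT bodies, level at both stages.

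*Dusp6*, the ERK phosphatase, had 2937 in *Hand2NC* and 2803 in WT heads, and 3089 in *Hand2NC* and 2824 in WT bodies. The log2 ratios were 0.07 and 0.13; the first was within its spread of 0.09 and the second just past its spread of 0.12. *Il17rd* had 1277 in *Hand2NC* and 1248 in WT heads, and 1185 in *Hand2NC* and 935 in WT bodies. Its ratio was 0.03 at E12.5 and 0.34 at E11.5, where the spread was 0.14, and the mean with a dim second probe set was -0.41 at E11.5, in the other direction.

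**Figure D3:**
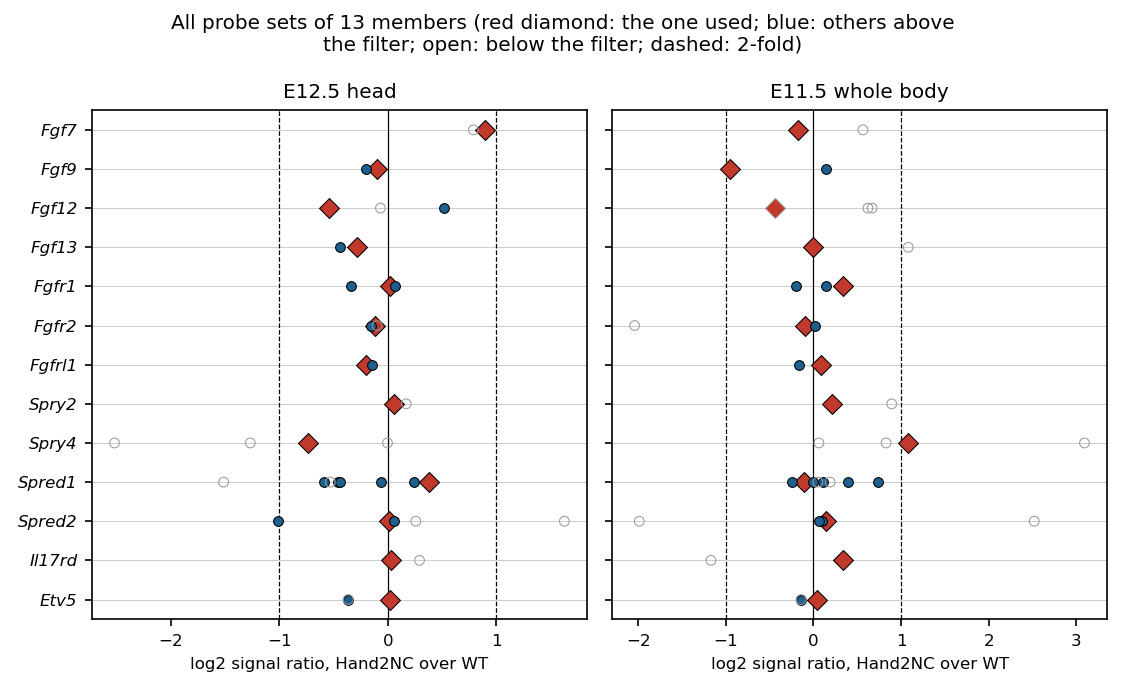
Log2 ratio of *Hand2NC* over WT (x axis) for every probe set of 13 FGF pathway genes (y axis), in E12.5 heads on the left and E11.5 whole bodies on the right. Red diamonds are the probe set used, blue points the others above the filter and open points those below it, and dashed lines mark 2-fold; the blue points of *Spred1* at E12.5 run between -0.59 and 0.24 beside the diamond at 0.38.

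Of the ETS factors that FGF signalling induces, *Etv5* was level on the probe set used, with log2 ratios of 0.02 and 0.05. Signals there were 925 in *Hand2NC* and 913 in WT heads, and 797 in *Hand2NC* and 772 in WT bodies. A dimmer *Etv5* probe set above the filter gave -0.37 at E12.5 (126 in *Hand2NC* and 163 in WT heads) and -0.14 at E11.5. Another, below the filter, also gave -0.37 and -0.14. *Etv4* was dim, with 51.4 in *Hand2NC* and 74.98 in WT heads, below the filter, and 76.7 in *Hand2NC* and 102 in WT bodies. *Etv4* passed the filter at E11.5 through the WT body alone, and its ratio there of -0.42 was within the spread of 0.44. *Fgfr1op2*, which is no FGF receptor, had 2331 in *Hand2NC* and 2124 in WT heads, and 2680.4 in *Hand2NC* and 2622 in WT bodies, with ratios of 0.13 and 0.03; the first was past its spread of 0.11 and turned to -0.02 with the mean over its probe sets.

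How far probe sets of a gene bear each other out was counted over the 90 probe sets of the 40 genes, 15 of which had a single probe set. At E12.5, 17 further probe sets of compared genes were above the filter, 8 with the same direction as the one used and 9 with the opposite one. At E11.5 there were 15, 7 with the same and 8 with the opposite direction.

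The heads at E12.5 and the bodies at E11.5 were then compared within each genotype. Within 0.5 of 0 on the log2 scale lay 15 of 27 genes in *Hand2NC* and 19 of 27 in WT, as did 79.5% and 75.1% of all genes. Of the 27 genes, which were above the filter on at least 1 array, 14 had both heads above both bodies and 5 had both heads below both bodies, where 38.6% and 31.1% of 12248 genes did. None was 2-fold higher in both genotypes or 2-fold lower in both, beside 1.98% and 1.85% of all genes. The median log2 ratio of E12.5 head over E11.5 body was 0.19 within *Hand2NC* and 0.24 within WT, beside 0.04 and 0.03 over all genes, with ranges of -0.91 to 1.08 and -0.64 to 1.45. These comparisons share their arrays with those of the genotypes.

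All 4 FGF homologous factors were higher in both heads than in both bodies, as were 38.6% of all genes. Their log2 ratios within *Hand2NC* and within WT were 0.54 and 1.15 for *Fgf11*, 0.54 and 0.64 for *Fgf12*, 0.74 and 1.02 for *Fgf13*, and 0.60 and 1.45 for *Fgf14*. *Fgf12* passed the filter through the WT head alone and *Fgf14* through the heads alone. The ratios of *Fgf12* and *Fgf14* thus rest on body signals below the array medians. *Fgf15* was nearest to 2-fold in both genotypes, at 1.08 within *Hand2NC* and 0.91 within WT. Neuron markers did the same: all 10 were higher in both heads, with a median over the 2 genotypes of 0.97, and the part of neuron content in these ratios was not tested.

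Further genes with both heads higher were the receptors *Fgfr1* (0.19 within *Hand2NC* and 0.50 within WT) and *Fgfr3* (0.53 and 0.43 in the same order), *Fgf18* (0.66 and 0.30), *Frs3* (0.85 and 0.42), *Spry1* (0.53 and 0.34), *Il17rd* (0.11 and 0.42), *Spred2* (0.18 and 0.31), *Spred3* (0.11 and 0.02) and *Etv5* (0.21 and 0.24). Both heads were lower for *Etv4* (-0.58 within *Hand2NC* and -0.45 within WT), *Spry3* (-0.35 and -0.40), *Fgfrl1* (-0.33 and -0.04), *Fgfr4* (-0.25 and -0.29) and *Fgfr1op2* (-0.20 and -0.30). *Etv4* passed the filter through the WT body alone, so its ratios rest on head signals below the array medians. For *Dusp6*, *Fgfr2* and *Spry2* the heads and bodies overlapped, with ratios between -0.07 and 0.18. The other 5 had opposite signs in the 2 genotypes: -0.91 within *Hand2NC* and 0.90 within WT for *Spry4*, 0.98 and -0.09 in the same order for *Fgf7*, 0.21 and -0.64 for *Fgf9*, 0.37 and -0.12 for *Spred1*, and 0.19 and -0.15 for *Fgf4*.

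**Figure D4:**
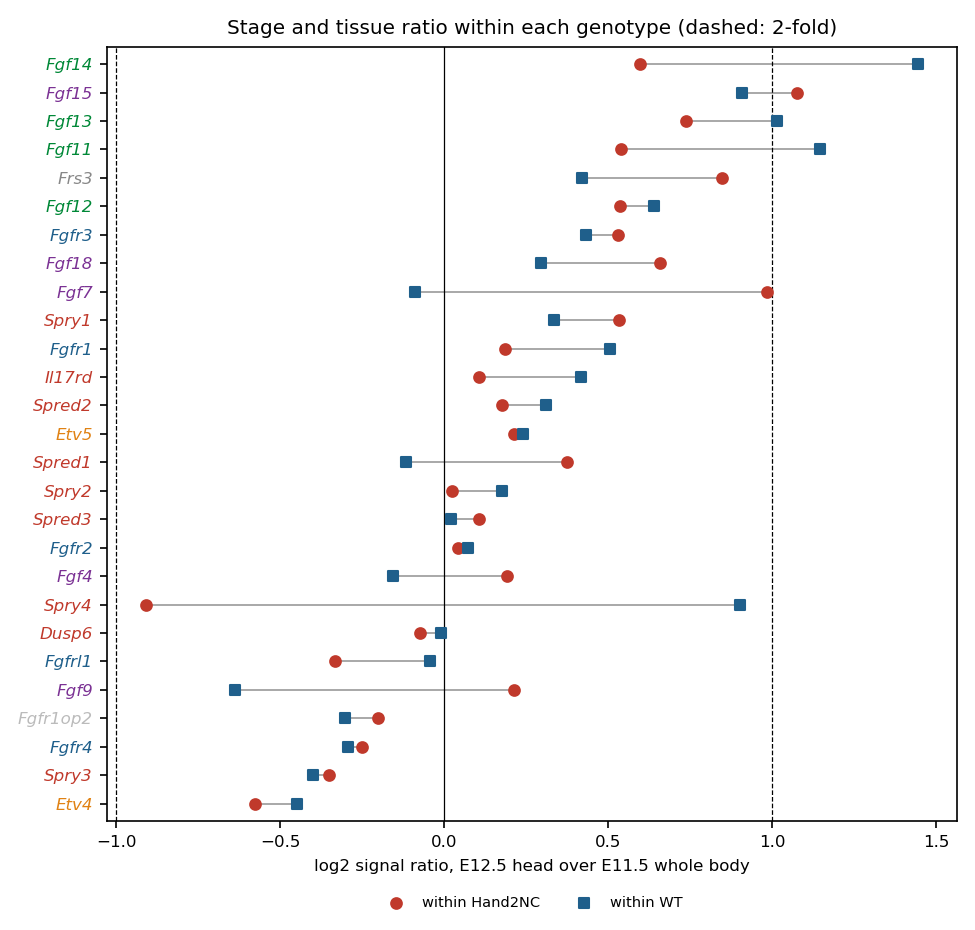
Log2 ratio of E12.5 head over E11.5 whole body signal (x axis) for 27 FGF pathway genes (y axis, ordered by the mean of both genotypes), with red circles within *Hand2NC*, blue squares within WT and dashed lines at 2-fold. Each point is a ratio of 2 arrays; the 4 FGF homologous factors and *Fgf15* lie to the right in both genotypes, while *Spry4* runs between -0.91 and 0.90.

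Beyond the 40 genes, 49 others of the pathway were listed, of which 43 had a probe set with 1 symbol, and 0 of those above the filter were past 2-fold between the genotypes at either stage. In the RAS-MAPK chain all 15 named genes were above the filter. Their median log2 ratio was 0.03 at E12.5, with 0 higher and 2 lower past the spread (17.0% and 16.4% of all genes), and 0.0050 at E11.5, with 4 higher and 1 lower (16.2% and 17.4% of all genes). The adaptor *Shc1* was lower in heads, with 409 in *Hand2NC* and 508 in WT and a log2 ratio of -0.31. In bodies *Map2k2* had 1739 in *Hand2NC* and 1431 in WT, and the RAS exchange factor *Sos2* had 1120 in *Hand2NC* and 923 in WT, both with a ratio of 0.28.

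Heparan sulphate enzymes and carriers shape how FGFs reach their receptors. Of 15 measured, 2 were higher and 4 lower past the spread at E12.5 (17.0% and 16.4% of all genes). At E11.5, 1 was higher and 4 were lower (16.2% and 17.4% of all genes). The median log2 ratios were -0.0019 at E12.5 and -0.02 at E11.5. The syndecan *Sdc4* was lower at both stages, with 357 in *Hand2NC* and 467 in WT heads (-0.39) and 311 in *Hand2NC* and 377 in WT bodies (-0.27). *Hs6st1*, a sulphotransferase, had 345 in *Hand2NC* and 455 in WT heads (-0.40) and was level in bodies (-0.02). Among co-receptors and FLRT proteins, *Flrt1* had 219.5 in *Hand2NC* and 201 in WT heads, and 116 in *Hand2NC* and 181 in WT bodies, a ratio of -0.64 at E11.5. *Klb*, the co-receptor of endocrine FGFs, had 10.7 in *Hand2NC* and 26.8 in WT heads, against 74.6 in *Hand2NC* and 101 in WT bodies.

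Immediate early genes, which the MAPK cascade induces within minutes, were also compared. *Fos* had 96.5 in *Hand2NC* and 150.1 in WT heads (-0.64, spread 0.29) and 183 in *Hand2NC* and 218 in WT bodies (-0.25, within the spread of 0.31). *Ier2* had 1105 in *Hand2NC* and 954 in WT heads (0.21) and 1265 in *Hand2NC* and 1289 in WT bodies (-0.03). *Egr1* was higher in heads than in bodies, with 1018 in *Hand2NC* and 1112 in WT heads (-0.13) against 477 in *Hand2NC* and 567 in WT bodies (-0.25, past the spread of 0.15).

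**Figure D5:**
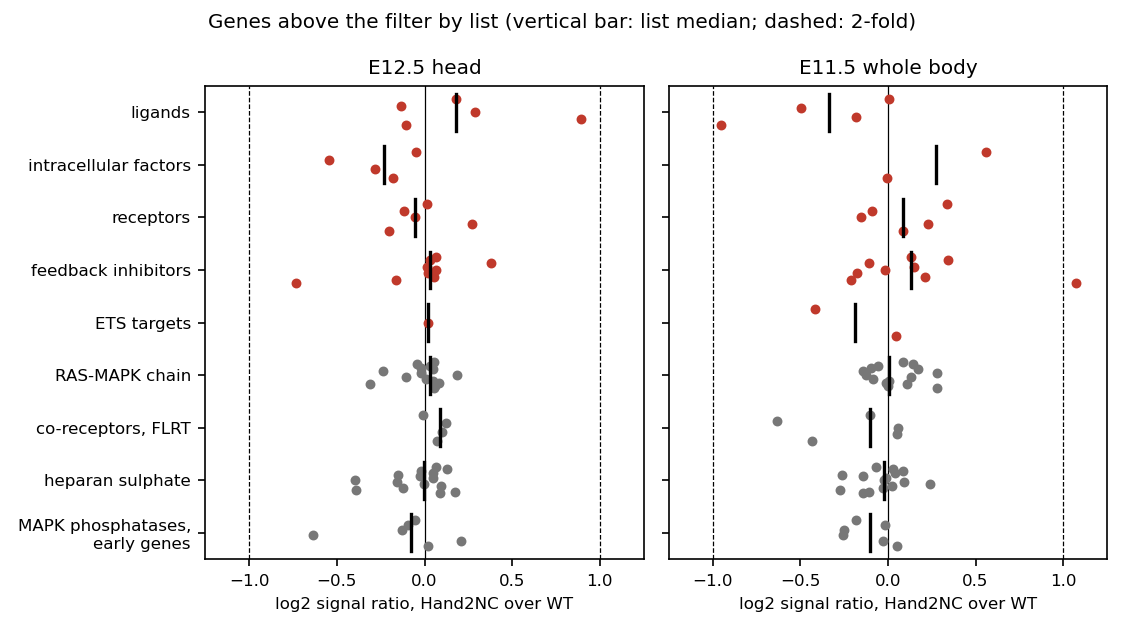
Log2 ratio of *Hand2NC* over WT (x axis) for each gene above the filter, by list (y axis), in E12.5 heads on the left and E11.5 whole bodies on the right, with FGF pathway genes of the 40 in red and other pathway genes in grey (*Frs3* and *Fgfr1op2* are not drawn). Vertical bars are list medians and dashed lines mark 2-fold; apart from *Spry4* at E11.5, every gene lies between the dashed lines.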

How the data were processed

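Transcripts were measured on 4 Affymetrix mouse arrays of 1 colour, 1 per group. RNA of several embryos was pooled before hybridization, so the number of arrays limits the precision. The deposited files hold linear intensity values, 1 per probe set, which the authors made with MAS5, with no detection calls.

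Of 45101 probe sets, 64 were controls and were not used. Arrays were brought to a common 2% trimmed mean of 500, and log2 signals were compared. The platform annotation gave 34945 probe sets 1 symbol, 932 several and 9160 none; 34741 had a gene ID in the RefSeq table, and 0 symbols changed. Each gene was represented by the single-symbol probe set that was brightest in mean log2 over the 4 arrays. It was kept where the brighter array of a comparison (for stages, the brightest of 4) was at or above its own median, and called at 2-fold. The local spread is 1.4826 times the median absolute deviation of the ratio over the 500 genes nearest in mean signal. Counting was tested on simulated data, with log2 changes of 2 in either direction planted in genes with signals above 500. Dimmer genes, such as *Spry4*, were not covered by that test. With 1 array per group no test was run.

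All values are given for receptors, inhibitors, ETS factors and ligands above the filter, counts and ranges for the others, and from each other pathway list at most 3 genes, those with the largest ratios. The 40 genes, the pathway and marker lists and the alternatives were chosen with earlier results of these data known. Alternatives covered the scaling (as deposited, median centring, quantile normalization), the filter (none, all arrays, the 75th percentile, values under the median raised to it) and the probe sets (their mean, or without those of several possible targets). A call from any probe set, leaving out *Fgfr1op2*, no overlap of stages in place of 2-fold, and the settings for counts past the spread were chosen after seeing the data. Software was Python 3.11.15 with matplotlib 3.10.9, scipy 1.17.1, pandas 2.3.3 and numpy 2.4.6.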

Additional observations from a re-analysis of the deposited data

Results flagged for a closer look

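The result that stands out is *Spry4*, whose *Hand2NC* over WT ratio pointed opposite ways at the 2 stages. It was -0.74 on the log2 scale in E12.5 heads (123 in *Hand2NC* and 205 in WT) and 1.08 in E11.5 bodies (231 in *Hand2NC* and 109.6 in WT), past the local spread in both. With 1 array per group, the difference between the stages was not tested.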

How the results depend on the processing

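Of the 77 single log2 ratios, all 77 stayed within the local spread of their value with the deposited values unscaled, with median centring and with quantile normalization. None of the 2-fold calls reversed. For the first 2 settings this was fixed in advance. The deposited trimmed means already lay between 497.6 and 497.8. Median centring shifts every ratio of a comparison alike, at E12.5 from 0.07 to 0.12 for *Dusp6*, which had the smallest spread (0.09). Small ratios changed sign, 8 with median centring and 3 with quantile normalization. The counts at 2-fold were less stable. The count lower at E11.5 was 0, and 1 (*Fgf9*) with median centring and 1 with quantile normalization. Without a filter 4 genes were higher at E12.5, 3 were higher at E11.5 and 2 lower at E11.5, all but *Spry4* below the array medians. The count higher at E11.5 was 0 with the 75th percentile filter and 0 with the mean over probe sets. A call from any probe set gave 1 gene lower at E12.5 (*Spred2*). Requiring no overlap of the stages in place of 2-fold gave 14 genes higher and 5 lower. Past the local spread, median centring gave 5 higher at E12.5, 4 higher at E11.5 and 8 lower at E11.5, quantile normalization gave 7 lower at E11.5, and the mean over probe sets gave 4 higher at E11.5. The mean over probe sets moved 20 of 60 single ratios by more than the local spread and changed the sign of 13. Dim probe sets enter it with equal weight, and the ratios of genes with 1 probe set could not move. No paired analysis was possible because each group has 1 array. Of the 40 genes, 13 lie below the array medians, where no ratio was read.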
